A study of Homo sapiens with 3 samples.

Results

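The 10 genes described here encode regulators of apoptosis of the BCL2 family. They were taken by symbol from the deposited table of 17448 genes, and all 10 were found. In all, 14031 genes had at least 10 counts in at least 1 library, and all 10 members were among them. RNA was sequenced from H128 cells, an established small cell lung cancer (SCLC) line, at 48 h after transfection with control siRNA (siCont) or with siRNA against ESRRG, the gene of the nuclear receptor ERRγ. The ESRRG libraries carry the labels siERRG2 and siERRG3, which the sources used here do not tie to the numbered siRNAs of the study. There was 1 library per condition, so that no difference has a replicate check and no p-value is given. The study followed caspase activity and PARP1 cleavage after knockdown of ESRRG, at a later time than 48 h and in H446 as well as H128 cells. The comparisons ask how the RNA of these regulators stood at 48 h in H128 cells alone.

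Proteins of the BCL2 family decide whether the outer membrane of the mitochondrion stays intact. BAX and BAK, the effectors, form pores in that membrane through which cytochrome c leaves and starts the caspase cascade. The anti-apoptotic proteins BCL-2, BCL-XL (BCL2L1) and MCL-1 hold the effectors in check. The BH3-only proteins BIM (BCL2L11), PUMA (BBC3), NOXA (PMAIP1), BID and BAD respond to stress and either occupy the groove of the anti-apoptotic proteins or activate the effectors. SCLC cells often depend on BCL-2, BCL-XL or MCL-1 for survival. Much of the control of these proteins is exerted after transcription, by phosphorylation, cleavage and degradation, which RNA levels do not show.

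Promoter sequence was examined because the knocked-down protein is a transcription factor. RefSeq (GRCh38.p14) gave 15 promoter windows for 9 of the members, each from 250 bases before to 50 bases after a start site, and MCL1 was not matched. The ERR half-site AAGGTCA was found on either strand in 0 of the 15 windows, and in 3.92% of all 35116 windows. The longer ERR site TNAAGGTCA, which contains the half-site, was in 0.951% of all windows. The cAMP response element TGACGTCA (1.85% of all windows) and the amino acid response core TGATGNAA (3.62%) were in 0 of the 15 as well, and so was the longer ERR site. A match or its absence describes only the letters of these windows. The stretches shown are those of BCL2L11, with its match to the FOXO site GTAAACA (3.42% of all windows), and of PMAIP1, a gene at least 1.2-fold higher than in siCont in each ESRRG library. Capitals mark the FOXO site and the GC box GGGGCGGGG (15.7% of all windows), which was also in 2 of the windows of BID and in those of BAD. The stretches run 5′ to 3′ on the plus strand and end at the base before the start site, at chr2:111120664-111120913 for BCL2L11 and chr18:59899846-59899995 for PMAIP1.
BCL2L11: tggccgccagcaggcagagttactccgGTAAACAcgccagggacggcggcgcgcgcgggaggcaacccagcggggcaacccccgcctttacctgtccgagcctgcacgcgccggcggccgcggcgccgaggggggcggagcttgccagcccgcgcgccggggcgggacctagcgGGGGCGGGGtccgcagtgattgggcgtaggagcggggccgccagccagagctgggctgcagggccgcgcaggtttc
PMAIP1: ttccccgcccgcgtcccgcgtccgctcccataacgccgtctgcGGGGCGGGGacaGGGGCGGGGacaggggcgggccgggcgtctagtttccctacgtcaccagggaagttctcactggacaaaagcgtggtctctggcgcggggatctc

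The libraries were of almost equal depth, with 19861937 to 20016780 estimated counts in total. ESRRG had 806 counts in siCont against 211 in siERRG2 and 230 in siERRG3, with ratios to siCont of 0.259 (95% interval 0.221 to 0.302) and 0.281 (0.241 to 0.325). Of the SCLC markers examined, the 7 neuroendocrine genes found in the table summed to 1294 FPKM in siCont against 1175 in siERRG2 and 1462 in siERRG3. The 8 markers of leukocytes, endothelium, fibroblasts, muscle and liver summed to 5.92, 4.83 and 5.11 FPKM, with none of them at 0, and the epithelial marker EPCAM was low, with 18, 13 and 17 counts. The neuroendocrine markers differed in either direction, and 1 was at least 1.2-fold lower (INSM1) and 1 higher (DLL3) in siERRG2, and 3 lower (NEUROD1, CHGA and SYP) and 2 higher (DLL3 and UCHL1) in siERRG3. Of 6 markers of other cell types with enough counts, 3 were lower and 0 higher in siERRG2, and 3 lower and 2 higher in siERRG3, all at 181 counts or fewer. Over all genes tested, 19.2% were lower and 16.4% higher in siERRG2, and 25.1% lower and 23.2% higher in siERRG3. The lower markers included COL1A1, of fibroblasts, with 181, 127 and 132 counts, and the higher ones in siERRG3 CD68, of macrophages, with 22, 22 and 50. Of these 6 markers, the 95% interval of the ratio lay below 1 for 2 and above 1 for 0 in siERRG2. In siERRG3 it lay below 1 for 2 and above 1 for 1 of these markers. Their part in the results was not tested. In RNA from whole cultures, a change in every cell and a change in a part of the cells cannot be told apart.

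Levels of different genes were compared on the expression value of the table, which behaves as FPKM (a count corrected for transcript length and library depth), with the 95% exact Poisson interval of the count behind it. In siCont, MCL1 had the highest level of the 10 genes, 73.8 FPKM (interval 71.9 to 75.8), above 92.0% of all genes tested. BAX followed with 44.2 FPKM (41.0 to 47.6) and BCL2L1 with 42.4 (40.7 to 44.2), and their intervals overlapped. BCL2 had the lowest level, 0.99 FPKM (0.766 to 1.26), above 20.1% of all genes. The RNA of BCL2L1 and MCL1 thus far exceeded that of BCL2 in these cells.

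Between these extremes, BAD had 26.0 FPKM in siCont, PMAIP1 15.5, BID 14.03, BAK1 8.67, BCL2L11 6.39 and BBC3 1.51. The intervals of PMAIP1 and BID overlapped, as did those of BBC3 and BCL2, and the other neighbours were apart beyond counting error. BBC3 and BCL2, with 53 and 66 counts in siCont, were the least precisely measured members. The order differed between the libraries. In siERRG3, BAD at 36.1 FPKM (33.5 to 38.9) stood above BCL2L1 at 31.9 (30.4 to 33.5), whereas it stood below BCL2L1 in siCont and in siERRG2. BAK1 at 16.4 FPKM (15.3 to 17.7) likewise stood above BID at 12.7 (11.7 to 13.8) in siERRG3 and below it in the other libraries.

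**Figure D1:**
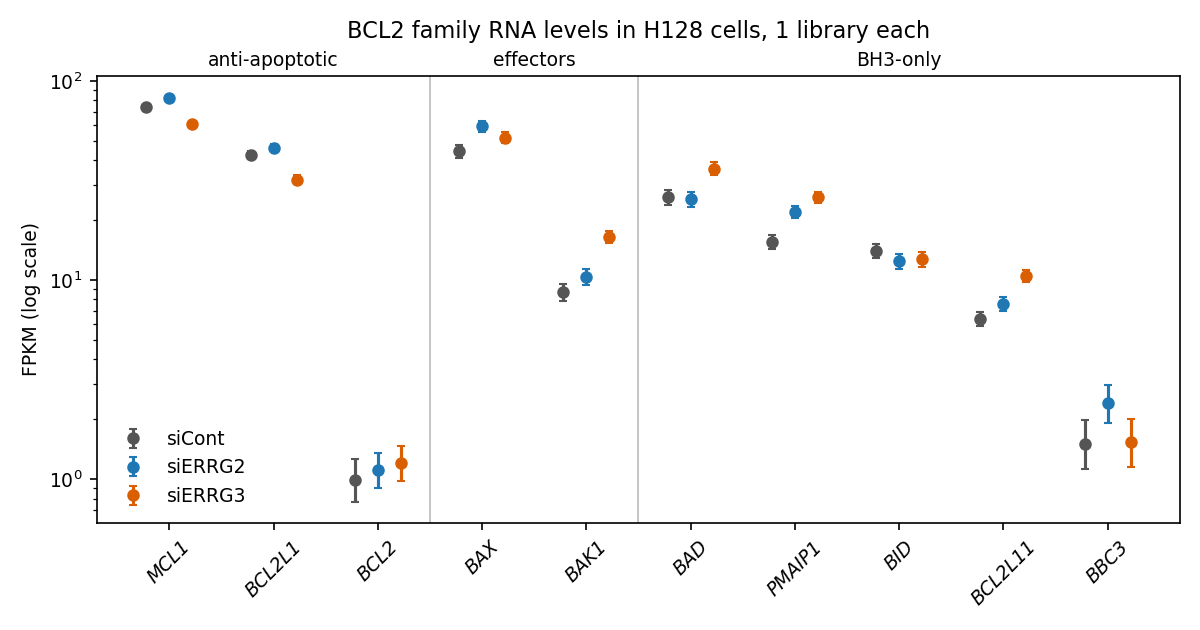
RNA levels of the 10 members (FPKM, log scale) in the siCont, siERRG2 and siERRG3 libraries, grouped by role; points are single libraries and bars are 95% exact Poisson intervals. MCL1 is highest in each library and BCL2 lowest, at 0.99 FPKM in siCont.

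In siERRG2, 4 of the 10 members (BAX, BCL2, BBC3 and PMAIP1) were at least 1.2-fold higher than in siCont, against 16.4% of all genes tested, and 0 were at least 1.2-fold lower, against 19.2%. In siERRG3, 5 members (BAK1, BCL2L11, BAD, PMAIP1 and BCL2) were at least 1.2-fold higher, against 23.2% of all genes, and 2 (BCL2L1 and MCL1) were at least 1.2-fold lower, against 25.1%. Among the 11369 genes averaging at least 50 counts, as all members did, 1454 were higher and 1757 lower in siERRG2. In siERRG3, 2200 of them were higher and 2765 lower. Fold changes are differences of log2 CPM (counts scaled to the depth of the library) after TMM scaling, and 1.2-fold is the threshold of the study. The median log2 fold change of the 10 members was 0.22 in siERRG2 and 0.33 in siERRG3, beside -0.0004 and -0.0033 over all genes. The siCont library is shared by these comparisons, so that an error in it would enter each of them.

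The scaled count ratio was also given a 95% exact binomial interval (Clopper-Pearson), which covers counting error only and compares libraries, not conditions. In siERRG2 this interval lay above 1 for 8 members, against 21.7% of all genes, and below 1 for 1 member, BID, against 22.4%. In siERRG3 it lay above 1 for 6 members, against 27.1% of all genes, and below 1 for 2 members, against 28.5%. All members averaged at least 50 counts, whereas the shares include genes of fewer counts. Among the 11369 genes averaging at least 50 counts, the interval lay above 1 for 2891 and below 1 for 2892 in siERRG2. In siERRG3 these numbers were 3442 and 3828. MCL1, at 5751 counts in siCont, can pass this measure with a smaller change than BBC3, at 53 counts.

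**Figure D2:**
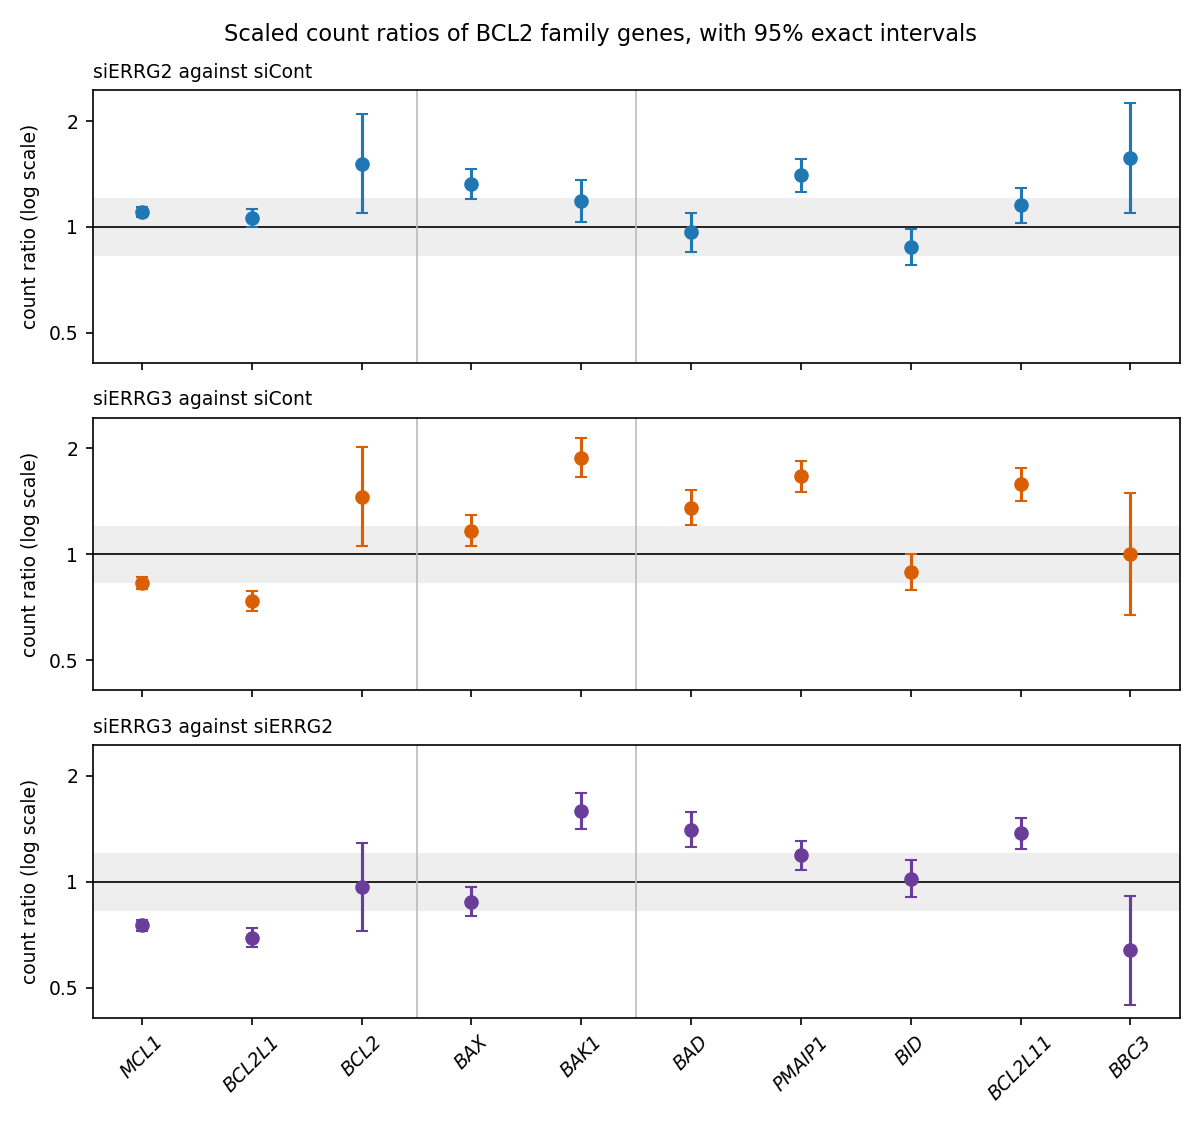
Scaled count ratios of the 10 members (log scale) in siERRG2 against siCont, siERRG3 against siCont and siERRG3 against siERRG2, with 95% exact binomial intervals; the grey band spans changes under 1.2-fold. The ratios of MCL1 and BCL2L1 lie above 1 in siERRG2 and below 1 in siERRG3, while those of PMAIP1 are 1.40 and 1.67.

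MCL1 encodes a short-lived protein that restrains BAK and BIM and is itself bound by NOXA. It is gene 4170 on chromosome 1, from 150517660 to 150579738 in the GRCh38 coordinates of the table. In RefSeq it is shorter, from 150574558 to 150579610. It had 5751 counts in siCont against 6417 in siERRG2 and 4847 in siERRG3, so that siERRG2 was the highest library and siERRG3 the lowest. Relative to siCont the count ratio was 1.10 (1.06 to 1.14) for siERRG2 and 0.829 (0.798 to 0.861) for siERRG3. The log2 fold change of -0.27 in siERRG3 was just past 1.2-fold, and with CPM from total counts, or TMM factors from genes averaging at least 50 counts, MCL1 was not past it. RPRD2, which overlaps MCL1 in the table, had 3397, 3399 and 2360 counts in the same order of libraries and was lower in siERRG3 too. ENSA, which also overlaps it there, had 7764, 8202 and 6874 counts and was likewise highest in siERRG2 and lowest in siERRG3. A sharing of reads between MCL1 and these genes was not tested.

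BCL2L1, gene 598, lies on chromosome 20 from 31664452 to 31724387 and encodes BCL-XL, which binds BAX, BAK and most BH3-only proteins. It had 2195 counts in siCont against 2361 in siERRG2 and 1648 in siERRG3. The count in siERRG2 was thus close to that of siCont, with a ratio of 1.06 (1.003 to 1.13), and the count in siERRG3 was lower, with a ratio of 0.738 (0.692 to 0.787). The log2 fold changes were 0.089 and -0.44.

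BCL2, gene 596, is the founding member of the family. On chromosome 18 the gene spans 63022901 to 63356190 in the table and 63123346 to 63320090 in RefSeq. It had 66 counts in siCont against 101 in siERRG2 and 98 in siERRG3, higher in each ESRRG library on this scale. The count ratio was 1.51 (1.10 to 2.10) for siERRG2 and 1.46 (1.06 to 2.03) for siERRG3. On the FPKM scale the difference was smaller, with 0.99, 1.11 and 1.2 FPKM in siCont, siERRG2 and siERRG3. With a pseudocount of 0.1, BCL2 was not past 1.2-fold in either library. Without it the FPKM ratio to siCont was 1.12 in siERRG2 and 1.21, just past 1.2-fold, in siERRG3.

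The FPKM value divides the count by a length, which can differ between libraries. The length implied by count and FPKM for BCL2 was 3.36 kb in siCont against 4.57 kb in siERRG2 and 4.08 kb in siERRG3, or 1.36 and 1.22 times that of siCont. BCL2 was the 1 member whose implied length differed by at least 1.2-fold. Over the 11222 genes that averaged at least 50 counts and had at least 0.5 FPKM in every library, 0.668% differed by that much in siERRG2 and 1.01% in siERRG3. In the other 9 members the ratio lay between 0.971 (BCL2L11 in siERRG3) and 1.015 (MCL1 in siERRG3). Which BCL2 transcripts were assigned the reads is not in the gene-level values used here. KDSR, which overlaps BCL2 in the table, had 595, 519 and 555 counts, and VPS4B, which also does, 727, 725 and 867.

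BAX, gene 581, lies on chromosome 19 from 48954825 to 48961798 and encodes an effector that moves from the cytosol to mitochondria. It had 714 counts in siCont against 959 in siERRG2 and 847 in siERRG3, so that each ESRRG library was above siCont and siERRG2 was the highest. The count ratio was 1.33 (1.204 to 1.465) in siERRG2, past 1.2-fold, and 1.17 (1.06 to 1.29) in siERRG3, short of it. BAX overlapped no other gene of the table.

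BAK1, gene 578, lies on chromosome 6 from 33572076 to 33580296 and encodes BAK, the effector that resides in the outer membrane. It had 378 counts in siCont against 453 in siERRG2 and 724 in siERRG3. The siERRG3 library stood far above the others, with a count ratio of 1.88 (1.66 to 2.14) and a log2 fold change of 0.91, the largest of any member in either library. This value was above those of 96.4% of all genes in that comparison. In siERRG2 the ratio was 1.185 (1.03 to 1.36), short of 1.2-fold. ITPR3, whose extent overlaps that of BAK1, had 712, 607 and 608 counts.

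Among the BH3-only genes, PMAIP1 was at least 1.2-fold higher than siCont in each ESRRG library. PMAIP1, gene 5366, lies on chromosome 18 from 59899960 to 59904306 and encodes NOXA, which binds MCL-1 and promotes its degradation. It had 594 counts in siCont against 842 in siERRG2 and 1006 in siERRG3. The count ratio was 1.40 (1.26 to 1.56) for siERRG2 and 1.67 (1.503 to 1.85) for siERRG3. On the log2 scale these were 0.49 and 0.73. Like BAX, it overlapped no other gene of the table.

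BCL2L11, gene 10018, lies on chromosome 2 from 111119537 to 111168871 and encodes BIM, a potent BH3-only protein that binds all anti-apoptotic members. It had 573 counts in siCont against 667 in siERRG2 and 921 in siERRG3, again with siERRG3 well above the others. The count ratio was 1.15 (1.03 to 1.29) for siERRG2 and 1.58 (1.42 to 1.76) for siERRG3. The table gave it counts that were not whole in siERRG2 and siERRG3, and ACOXL, which overlaps it, had 18, 17 and 37 counts.

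BAD, gene 572, lies on chromosome 11 from 64269828 to 64284704 and encodes a BH3-only protein that binds BCL-2 and BCL-XL and is kept inactive by phosphorylation. It had 504 counts in siCont against 492 in siERRG2 and 696 in siERRG3. Only the siERRG3 library stood apart, with a ratio of 1.36 (1.21 to 1.53), while that of siERRG2 was 0.965 (0.851 to 1.095). GPR137, which overlaps BAD, had 953, 859 and 1160 counts and was highest in siERRG3 too, whereas PLCB3, which also overlaps it, had 1025, 980 and 746 and was lowest there. The part of shared reads in these values was not tested.

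BBC3, gene 27113, lies on chromosome 19 from 47220789 to 47232998 and encodes PUMA, a p53 target. It had 53 counts in siCont against 84 in siERRG2 and 54 in siERRG3. It was thus higher in siERRG2 alone, with a ratio of 1.57 (1.10 to 2.25), while in siERRG3 the ratio was 1.002 (0.673 to 1.49). At this depth a difference within that interval was not detectable in siERRG3. CCDC9, which overlaps BBC3 in the table, had 417, 474 and 667 counts, and DHX34, which also does, 830, 797 and 1033.

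BID, gene 637, encodes the protein that caspase-8 cleaves to link death receptors with mitochondria. On chromosome 22 the gene spans 17636974 to 17775990 in the table and 17734138 to 17774665 in RefSeq. It had 606 counts in siCont against 537 in siERRG2 and 550 in siERRG3, slightly lower in each ESRRG library and short of 1.2-fold. The count ratio was 0.876 (0.779 to 0.986) for siERRG2 and 0.893 (0.794 to 1.003) for siERRG3. BCL2L13, another family gene that overlaps BID in the table, had 1261, 1268 and 933 counts.

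**Figure D3:**
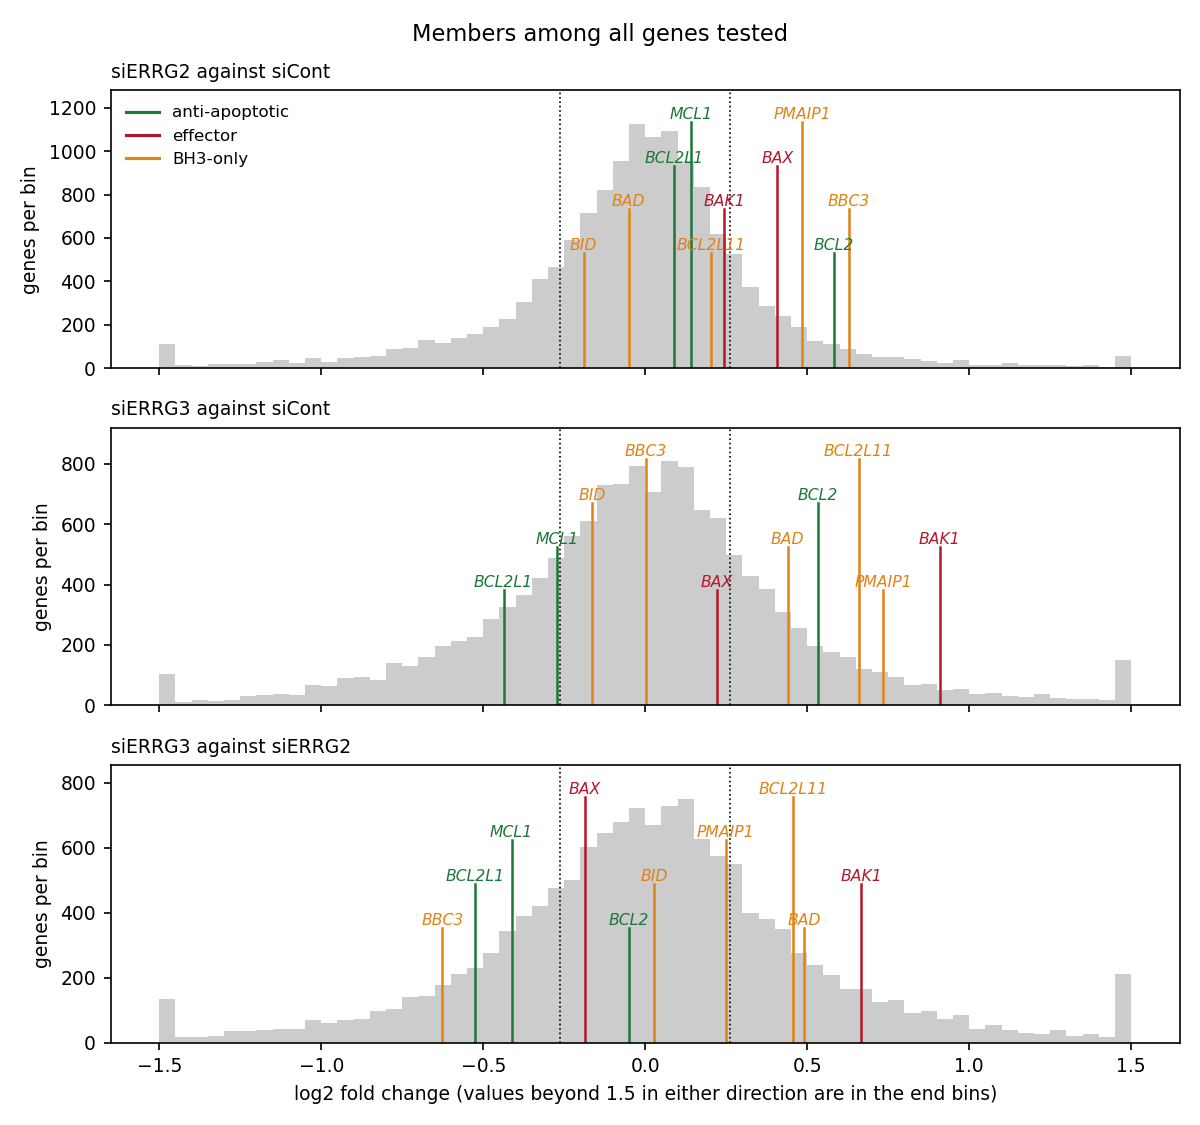
Histograms of log2 fold changes over all 14031 genes tested (grey; x axis, log2 fold change with values beyond 1.5 in the end bins; y axis, genes per bin) in each comparison, with the members as lines coloured by role and 1.2-fold as dotted lines. In siERRG3 against siCont, MCL1 and BCL2L1 are left of the dotted line at -0.27 and -0.44 and BAK1 is farthest right at 0.91.

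The siERRG3 and siERRG2 libraries were compared directly, without use of siCont. BAK1, BCL2L11 and BAD were at least 1.2-fold higher in siERRG3, 3 of 10 members against 26.4% of all genes. BCL2L1, MCL1 and BBC3 were at least 1.2-fold lower, 3 of 10 against 25.3%. The interval of the ratio lay above 1 for 4 members (29.1% of all genes) and below 1 for 4 (28.4%). The median log2 fold change of the members was -0.012, beside 0.0145 over all genes.

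By gene, the ratio of siERRG3 to siERRG2 was 0.694 (0.652 to 0.740) for BCL2L1 and 0.751 (0.724 to 0.780) for MCL1. It was 1.59 (1.41 to 1.79) for BAK1, 1.41 (1.25 to 1.58) for BAD and 1.37 (1.24 to 1.52) for BCL2L11. For BBC3 it was 0.639 (0.446 to 0.911), the lowest of the 10 members. For PMAIP1 it was 1.19 (1.083 to 1.30), just short of 1.2-fold, and for BAX 0.8785 (0.800 to 0.965). The members that differed between the ESRRG libraries thus included anti-apoptotic, effector and BH3-only genes. For BCL2 (0.965, 0.723 to 1.29) and BID (1.02, 0.903 to 1.15) the interval held 1. ESRRG itself had a ratio of 1.084 (0.896 to 1.31) between these libraries.

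Summed by role, the 3 anti-apoptotic genes had 117.2 FPKM in siCont (counting SD 1.335), 129.0 in siERRG2 (1.40) and 93.9 in siERRG3 (1.18). The effectors had 52.9 FPKM in siCont (1.71) against 69.5 in siERRG2 (1.97) and 68.3 in siERRG3 (1.88). The 5 BH3-only genes had 63.4 FPKM in siCont (1.48) against 69.6 in siERRG2 (1.52) and 86.8 in siERRG3 (1.73). The effector sum was thus higher than siCont in each ESRRG library, while the anti-apoptotic sum was highest in siERRG2 and lowest in siERRG3. The ratio of the BH3-only sum to the anti-apoptotic sum was 0.541 in siCont against 0.540 in siERRG2 and 0.924 in siERRG3. The ratio of the effector sum to the anti-apoptotic sum was 0.451, 0.539 and 0.727.

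**Figure D4:**
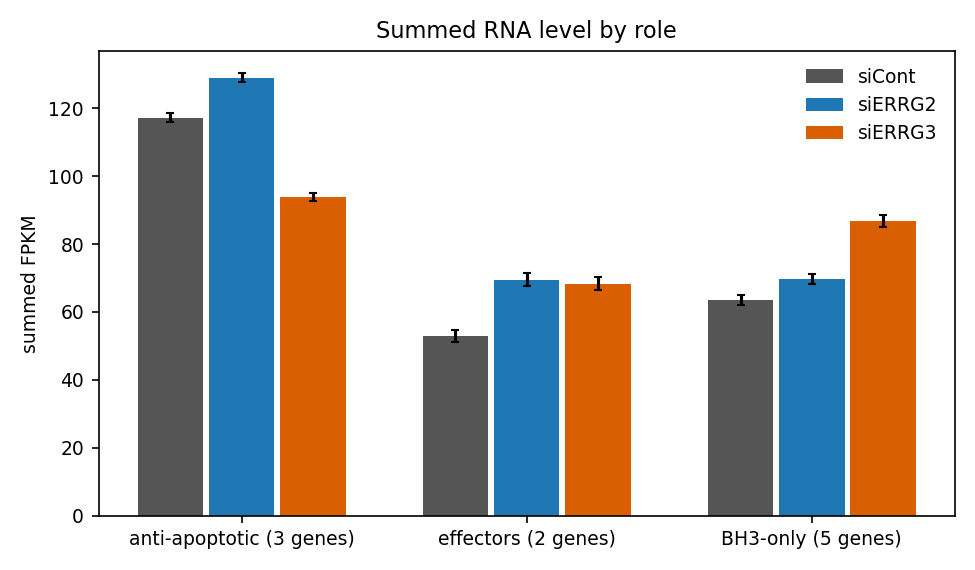
Summed FPKM of the anti-apoptotic, effector and BH3-only members in each library; error bars are the counting SD of the sum. The anti-apoptotic bar is 117.2 in siCont and 93.9 in siERRG3, and the BH3-only bar is 63.4 and 86.8.

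Ratios within a library do not depend on the scaling between libraries. They were taken for all 21 pairs of a pro-apoptotic (effector or BH3-only) and an anti-apoptotic member, as the odds ratio of their counts to siCont with a 95% exact interval. In siERRG2 the interval lay above 1 for 5 pairs, below 1 for 5 and held 1 for 11. In siERRG3 it lay above 1 for 11 pairs, below 1 for 1 and held 1 for 9. The pairs share genes and combine the member ratios given above, so that they are a description and not further evidence.

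The counts of pairs differed by anti-apoptotic partner. With BCL2L1, 6 of 7 pairs lay above 1 in siERRG3 and with MCL1 5 of 7, whereas with BCL2 0 of 7 lay above 1 and 1 lay below. BAK1 to BCL2L1 had the highest odds ratio, 2.55 (2.21 to 2.94) for siERRG3, against 1.11 (0.958 to 1.30) for siERRG2. BID to BCL2 had the lowest in each library, 0.579 (0.409 to 0.816) for siERRG2 and 0.6115 (0.431 to 0.863) for siERRG3. Odds ratios with BCL2 rest on its 66, 101 and 98 counts and leave out the difference in its implied length. On FPKM, BID to BCL2 was 14.17 in siCont, 11.19 in siERRG2 and 10.59 in siERRG3. BAX to BCL2 was 44.66 in siCont and 53.29 in siERRG2 on FPKM, though its odds ratio there was 0.878 (0.624 to 1.23). For PMAIP1 to MCL1, whose products NOXA and MCL-1 bind each other, the odds ratio was 1.27 (1.135 to 1.42) and 2.01 (1.80 to 2.24). PMAIP1 had 0.209 times the FPKM of MCL1 in siCont, 0.268 times in siERRG2 and 0.427 times in siERRG3.

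The members were set beside 8 lists of genes that act with them. Over all genes tested, 19.2% were at least 1.2-fold lower and 16.4% higher in siERRG2, and 25.1% lower and 23.2% higher in siERRG3, and the list counts are read against these shares. Since a gene of few counts can pass 1.2-fold by counting error, the number whose interval lay on 1 side of 1 is given as well for the 3 longest lists. Over all genes, the interval lay below 1 for 22.4% and above 1 for 21.7% in siERRG2. In siERRG3 these shares were 28.5% and 27.1%. They were larger among the 11369 genes averaging at least 50 counts, with 2892 below and 2891 above in siERRG2, and 3828 and 3442 in siERRG3.

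Of 14 genes of the apoptosome, the caspases and their substrates, 0 were at least 1.2-fold lower and 2 higher in siERRG2, and 5 lower and 2 higher in siERRG3. The interval lay below 1 for 2 genes and above 1 for 4 in siERRG2, and below 1 for 7 and above 1 for 3 in siERRG3. The median log2 fold change of the list was -0.0099 in siERRG2 and -0.11 in siERRG3.

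Of 16 genes of BAD kinases and 14-3-3 proteins, which hold phosphorylated BAD in the cytosol, 2 were lower and 0 higher in siERRG2, and 7 lower and 1 higher in siERRG3. The interval lay below 1 for 4 and above 1 for 4 in siERRG2, and below 1 for 11 and above 1 for 2 in siERRG3. The median of the list was -0.0014 in siERRG2 and -0.23 in siERRG3. PRKACA, a catalytic subunit of protein kinase A, had 4300 counts in siCont against 3592 in siERRG2 and 3549 in siERRG3.

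Of 15 transcription factors known to act on BCL2 family genes, 3 were lower and 0 higher in siERRG2, and 5 lower and 7 higher in siERRG3. The interval lay below 1 for 4 and above 1 for 1 in siERRG2, and below 1 for 6 and above 1 for 6 in siERRG3. Of the 3 lower in siERRG2, TP63 (36 and 28 counts in siCont and siERRG2) and STAT5A (7 and 2) had intervals that held 1. TP73, a relative of p53, had 11272 counts in siCont against 8815 in siERRG2 and 7450 in siERRG3. On the log2 scale these differences were -0.37 and -0.62. The median of the list was -0.048 in siERRG2 and 0.059 in siERRG3.

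The other 5 lists held fewer genes. Among 6 inhibitor of apoptosis genes, 1 was lower and 1 higher in each ESRRG library, with medians of 0.060 and -0.12. The higher gene was BIRC3, with 7, 12 and 9 counts and intervals that held 1. The lower gene was BIRC5, which encodes survivin and is expressed in dividing cells, with 3986 counts in siCont against 2842 in siERRG2 and 2867 in siERRG3. On the log2 scale the difference was -0.50 in each.

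Of 10 death receptor pathway genes, 2 were lower and 2 higher in siERRG2, and 3 lower and 1 higher in siERRG3, with medians of 0.10 and -0.14. Among the lower ones, TNFSF10 (10, 9 and 5 counts) and TNFRSF10B (22, 13 and 18) had intervals that held 1. TNFRSF1A (40, 20 and 21 counts) was lower in each library. Its ratios were 0.494 (0.274 to 0.866) in siERRG2 and 0.516 (0.289 to 0.897) in siERRG3. The higher gene in siERRG3, CASP8 (30, 33 and 48 counts), had an interval there that held 1 (0.977 to 2.57). Of 11 genes of outer membrane partners and mitochondrial fission, 2 were lower and 0 higher in each library, with medians of 0.011 and -0.018. The lower genes were not the same, with OMA1 and MFN2 in siERRG2 and OPA1 and MFN1 in siERRG3. Of 5 genes of MCL-1 turnover, 1 was lower and 1 higher in siERRG2, and 1 lower and 0 higher in siERRG3, with medians of -0.026 and -0.034. Of the other 7 BCL2 family genes tested, 3 were lower and 1 higher in each library, with medians of -0.205 and -0.13. These were mostly different genes. Beside BOK, BCL2L2 and BMF were lower and BCL2L12 higher in siERRG2. In siERRG3, BCL2L13 and HRK were lower beside BOK, and BCL2L2 was higher. BOK, an effector relative and 1 of the lower genes in each library, had 15, 12 and 11 counts and intervals that held 1. Genes named for their few counts, or to show which genes differed between the libraries, were picked with their values in view.

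**Figure D5:**
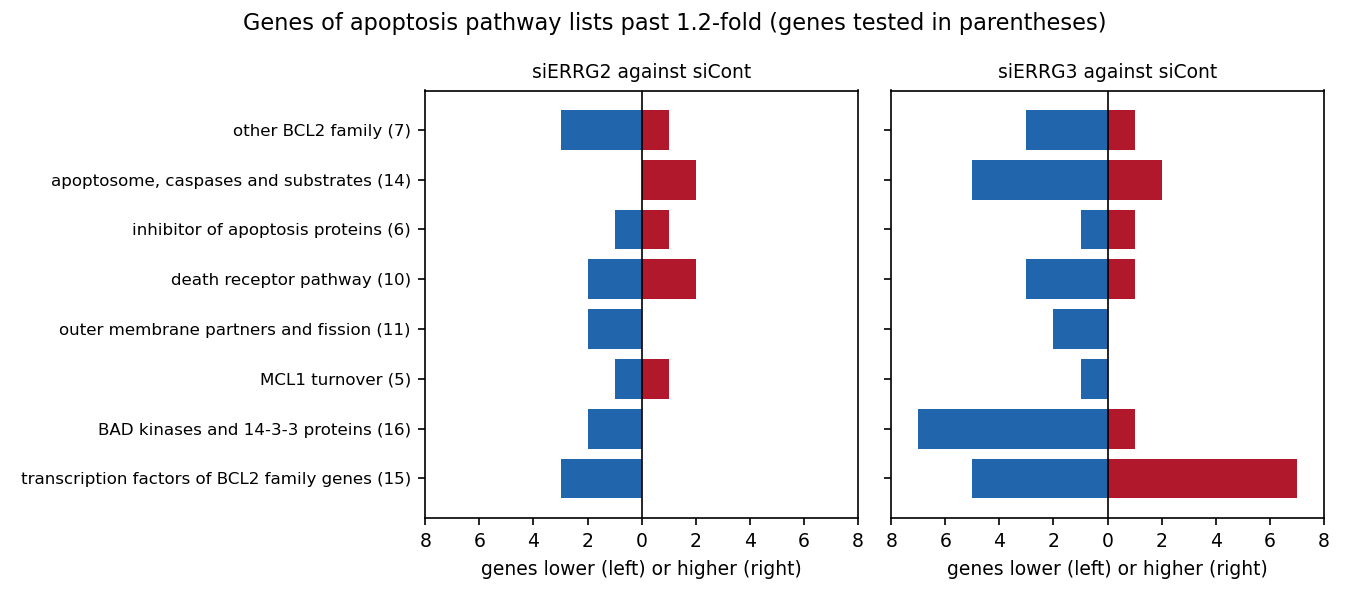
Number of genes at least 1.2-fold lower (left) or higher (right) than in siCont in 8 apoptosis lists, in siERRG2 and in siERRG3; the number of genes tested is in parentheses. The list of transcription factors has 0 higher genes in siERRG2 and 7 in siERRG3.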

How the data were processed

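RNA of H128 cells was sequenced in 3 libraries, 1 per condition (siCont, siERRG2 and siERRG3), with groups taken from the sample titles. The methods name BWA and Bowtie 2 with the assembly GRCh37/hg19. The labels describe paired-end reads and the methods a single-end system and, for the control, vehicle. The submitters' processing notes name TopHat2, HTSeq, DESeq2, GRCh38, hg19 and hg38, and the table carries GRCh38 coordinates. The authors deposited estimated counts (expected counts) per gene that were not normalized, of which 54.0% to 54.9% were whole. Which program made them is not given in the sources used here. The authors also deposited an expression value of unnamed unit that behaves as FPKM. Log2 ratios and Poisson p-values of the authors' own comparisons stand in the same table and were not used.

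Counts were rounded, and a gene was kept if any library gave it 10 or more. Libraries were scaled with TMM in edgeR 4.0.16 (R 4.3.3), with factors of 0.994, 1.003 and 1.003, and log2 CPM took a prior count of 2. Intervals at 95% were computed with SciPy 1.17.1 and cover counting error only, since reads without molecular identifiers are not independent molecules. The implied length is count divided by FPKM and by total counts. Motifs were searched on both strands of the RefSeq windows, several of which can belong to 1 gene.

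All 10 members are named. From each list, up to 4 genes per direction are named that changed by 1.2-fold or more the same way with siERRG2 and siERRG3 and averaged 50 or more counts. Overlapping genes and those under other observations were picked with their values in view. BIRC7, BCL2L10 and BCL2L14 of the lists were not analysed here, and 1 gene that the rule names is not reported here. The members and lists were chosen with earlier results of these data known. Of the members, 8 overlap other genes of the table, and it is not stated whether counting used strand. Gene positions and overlaps rest on the extents in the table, which exceed those of RefSeq widely for BCL2, BID and MCL1. Overlaps on the RefSeq extents were not examined. The computations were tested on simulated data. Alternatives were CPM from total counts, size factors of DESeq2 1.42.0, log2 FPKM with a pseudocount of 0.1, a prior count of 0.5, other filters, and thresholds of 1.5-fold and 2-fold.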

Additional observations from a re-analysis of the deposited data

Results flagged for a closer look

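In BCL2L1 and MCL1 the intervals of the count ratio to siCont lay on opposite sides of 1 in the ESRRG libraries. These intervals cover counting error only, and that of BCL2L1 in siERRG2 (1.003 to 1.13) lay barely above 1. The share of all genes with such opposite intervals was not counted. Over all genes, the interval lay above 1 for 21.7% in siERRG2 and below 1 for 28.5% in siERRG3. The log2 fold change of BCL2L1 was 0.089 in siERRG2 and -0.44 in siERRG3, and that of MCL1 was 0.14 in siERRG2 and -0.27 in siERRG3. Each value rests on 1 library, and a difference between the siRNAs beyond the spread of cultures was not tested.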

How the results depend on the processing

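With CPM from total counts, and with TMM factors from genes averaging at least 50 counts, 1 member was at least 1.2-fold lower in siERRG3 than in siCont in place of 2, since MCL1 lay at the threshold. At 1.5-fold, 1 member was higher in siERRG2 than in siCont (4 at 1.2-fold), 3 higher (5) and 0 lower (2) in siERRG3 than in siCont, and 1 higher (3) and 1 lower (3) in siERRG3 than in siERRG2. At 2-fold each of these counts was 0. Every other count of members kept within 1.5 times its value under the scalings, the FPKM values, the prior count of 0.5 and the filters tried, those of intervals included under both other scalings. The log2 fold changes of the members moved by at most 0.014 with the other scalings or prior count, and by at most 0.43 with FPKM, in BCL2. Counts of members changed in both ESRRG libraries were not run under the alternatives, since these ratios share siCont. No paired analysis was possible because there was 1 library per condition. Depth limits BBC3 and BCL2 most, whose counts lay between 53 and 101, and with no replicate library the spread between cultures is unknown for every value.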

Other observations

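Other family genes with large differences were chosen after their values were seen. BCL2L12 had 166 counts in siCont against 368 in siERRG2 and 186 in siERRG3, highest in siERRG2. BCL2L2, which encodes the anti-apoptotic BCL-W, had 687, 564 and 1023 counts and was highest in siERRG3, though it shares exons with the read-through gene BCL2L2-PABPN1 and is uncertain. The BH3-only gene BMF had 150, 82 and 181 counts, lowest in siERRG2, and HRK had 210, 240 and 149, lowest in siERRG3.

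Beyond the family, and likewise picked with values in view, HTRA2, which encodes a mitochondrial protease that antagonises inhibitor of apoptosis proteins, had 1252, 1281 and 678 counts, at least 1.2-fold lower in siERRG3 and not in siERRG2. DDIT3, which encodes the stress factor CHOP, had 321, 314 and 767 counts, and ATF4, its upstream activator, had 7456, 7860 and 10953, each at least 1.2-fold higher in siERRG3 and not in siERRG2. AKT2, a kinase that phosphorylates BAD, had 2256, 1956 and 1182 counts, lowest in siERRG3. These genes were not tested for a relation to the members.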
